A study of Mus musculus with 16 samples.

Results

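Skin that had lost MCPIP1 in keratinocytes was compared directly with skin that had lost it in myeloid cells, across all measured transcripts. The comparison and the gene lists used to describe it were chosen with earlier results of these data known. The comparison holds 8 of the 16 mice of the study: 4 with the keratinocyte deletion (EKO, Zc3h12a loxP/loxP with 1 copy of Krt14Cre) and 4 with the myeloid deletion (MKO, Zc3h12a loxP/loxP with 1 copy of LysMCre). The remaining 4 controls (Zc3h12a loxP/loxP without Cre) and 4 mice with both Cre genes (EMdKO) were used to share the estimate of spread and to show where the 2 single knockouts lie. All mice were 12 weeks old, all carried the floxed gene, and each library came from whole skin of 1 mouse. No wild-type mouse without floxed alleles was analysed here.

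MCPIP1, or Regnase-1, is an RNase encoded by Zc3h12a that cuts stem-loops in the mRNAs of cytokines and other inflammatory mediators and so limits their half-life. Krt14Cre is driven by a keratin promoter of basal keratinocytes, from which the rest of the epidermis, the hair follicle and the sebaceous gland derive, so the deletion is inherited by all of these. LysMCre sits in the Lyz2 gene of macrophages, monocytes and neutrophils, which make up a small part of the cells of whole skin. In whole tissue, fewer cells of a type and less RNA per cell cannot be told apart.

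The assay amplifies 1 short segment per transcript from a fixed panel of 23930 targets before sequencing, and a value is the number of reads assigned to a target. The 8 EKO and MKO libraries held 6962474 to 10924265 such counts, and 13633 targets had enough counts in the 16 libraries to be tested. Levels below are CPM, the count scaled to equal library size after correction for library composition. Keratinocyte, fibroblast, macrophage, mast cell, T cell and muscle markers were present in all 8 libraries (Krt5 at 1969.8 to 5151 CPM, Col1a1 at 9631 to 23535, Csf1r at 36.2 to 57). The neutrophil markers Ly6g and Mpo were at 0 in 7 and 8 of the 8 libraries, the macrophage marker C1qa at 0 in 7 and the B cell marker Ms4a1 at 0 in 4.

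Of these libraries, 2 stood apart. EKO mouse 1 had low levels of many genes that were high in the other 3 EKO mice, although its Zc3h12a was also reduced. MKO mouse 1 held the most skeletal muscle RNA, with a muscle score (the mean log2 CPM of 26 muscle genes) of 11.36 against 9.63 to 9.88 in its group. Counts for the main gene groups are also given without each of them.

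EKO and MKO skin differed in 117 genes, 89 higher and 28 lower in EKO. The genes higher in EKO included those of the cornified layer of the epidermis, epidermal proteases and their inhibitors, IL-36 cytokines, the alarmins S100a8 and S100a9, and mitosis. The genes lower in EKO, and so higher in MKO, included the macrophage receptor genes Marco and Siglece, the chemokine gene Cxcl13 and genes of B and plasma cells. A gene is called here where edgeR's quasi-likelihood test gave a Benjamini-Hochberg adjusted p under 0.05 over all 13633 genes. Called genes were 0.858% of those tested, 0.653% higher and 0.205% lower, and 2306 genes (16.9%) had an unadjusted p under 0.05, 8.73% higher and 8.19% lower. The median log2 fold change (EKO minus MKO) was 2.16 among the higher genes, -1.88 among the lower ones and -0.02 among all tested genes. The gene lists described below leave out many genes. On no list were 65 of the 89 higher genes, 18 of the 28 lower ones and 13037 of the 13633 tested.

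**Figure D1:**
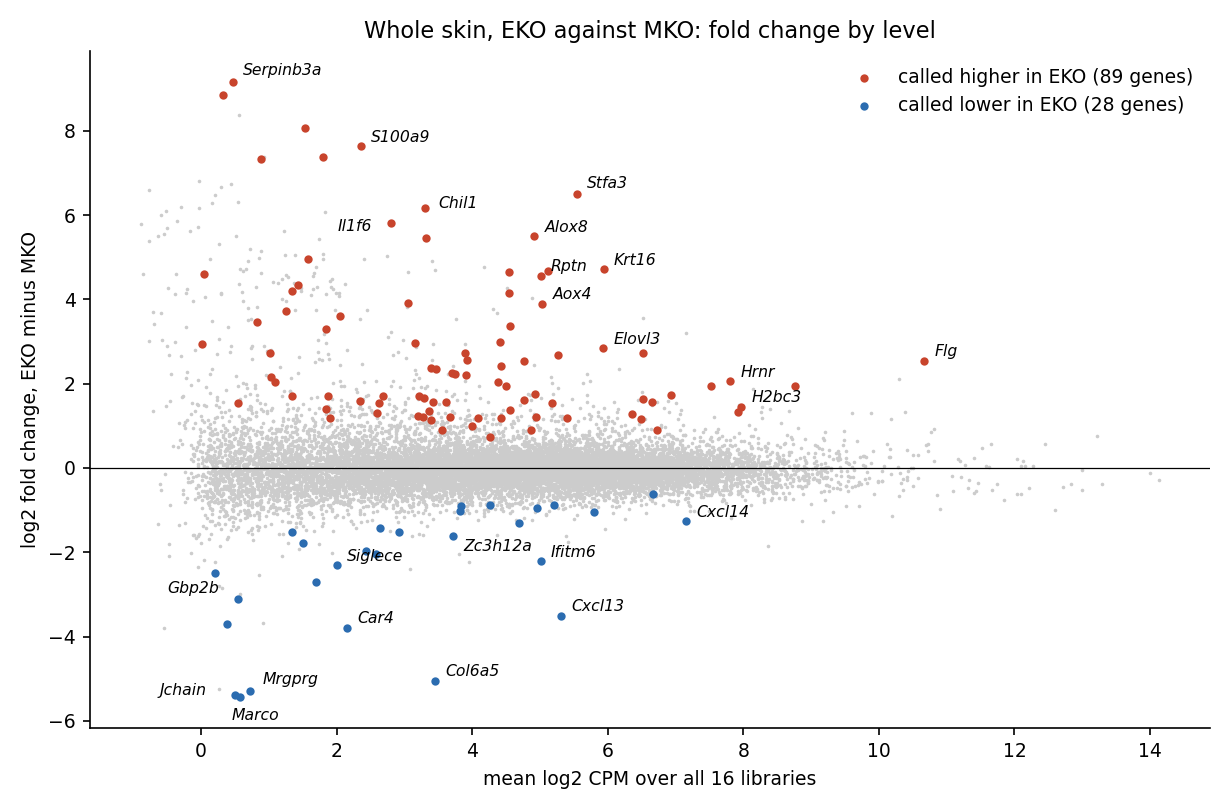
Log2 fold change of EKO over MKO (vertical axis) against the mean log2 CPM over all 16 libraries (horizontal axis) for each of the 13633 tested genes. The 89 genes called higher in EKO (red) reach larger fold changes than the 28 called lower (blue), and genes at the left edge rest on few counts in at least 1 group.

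All mice of the 2 groups were separated, with no overlap of their CPM values, in 59 of the 89 higher genes and 27 of the 28 lower ones. Among all tested genes 1405 (10.3%) were separated in this way, 5.15% higher and 5.16% lower in EKO. In each of the 30 higher genes that overlapped, EKO mouse 1 lay within or below the MKO range, and without that mouse none of the 117 overlapped. EKO mouse 1 was the lowest EKO mouse in 71 of the 89 higher genes.

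The number of calls moved strongly with single libraries. Without EKO mouse 1 there were 359 genes higher and 151 lower, including all 117, whereas leaving out EKO mouse 2, 3 or 4 left 7 and 5, 6 and 4, and 24 and 12. Leaving out MKO mouse 1, 2, 3 or 4 gave 3 and 11, 14 and 8, 2 and 6, and 36 and 24. Libraries outside the comparison also moved the number, with 244 and 105 without control mouse 1 and 58 and 23 without control mouse 3. Without EMdKO mouse 1, 2 and 4 the counts were 26 and 14, 53 and 20, and 40 and 23. Each such fit repeated the filter, the scaling and the shared estimate of spread, and their parts were not separated. All 16 fits that left out a library called 6 of the genes, namely Zc3h12a, Siglece, Marco and Mrgprg (lower) and Kif22 and Kifc1 (higher). Without EKO mouse 1 and MKO mouse 1 together, 244 genes were higher and 97 lower.

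**Figure D2:**
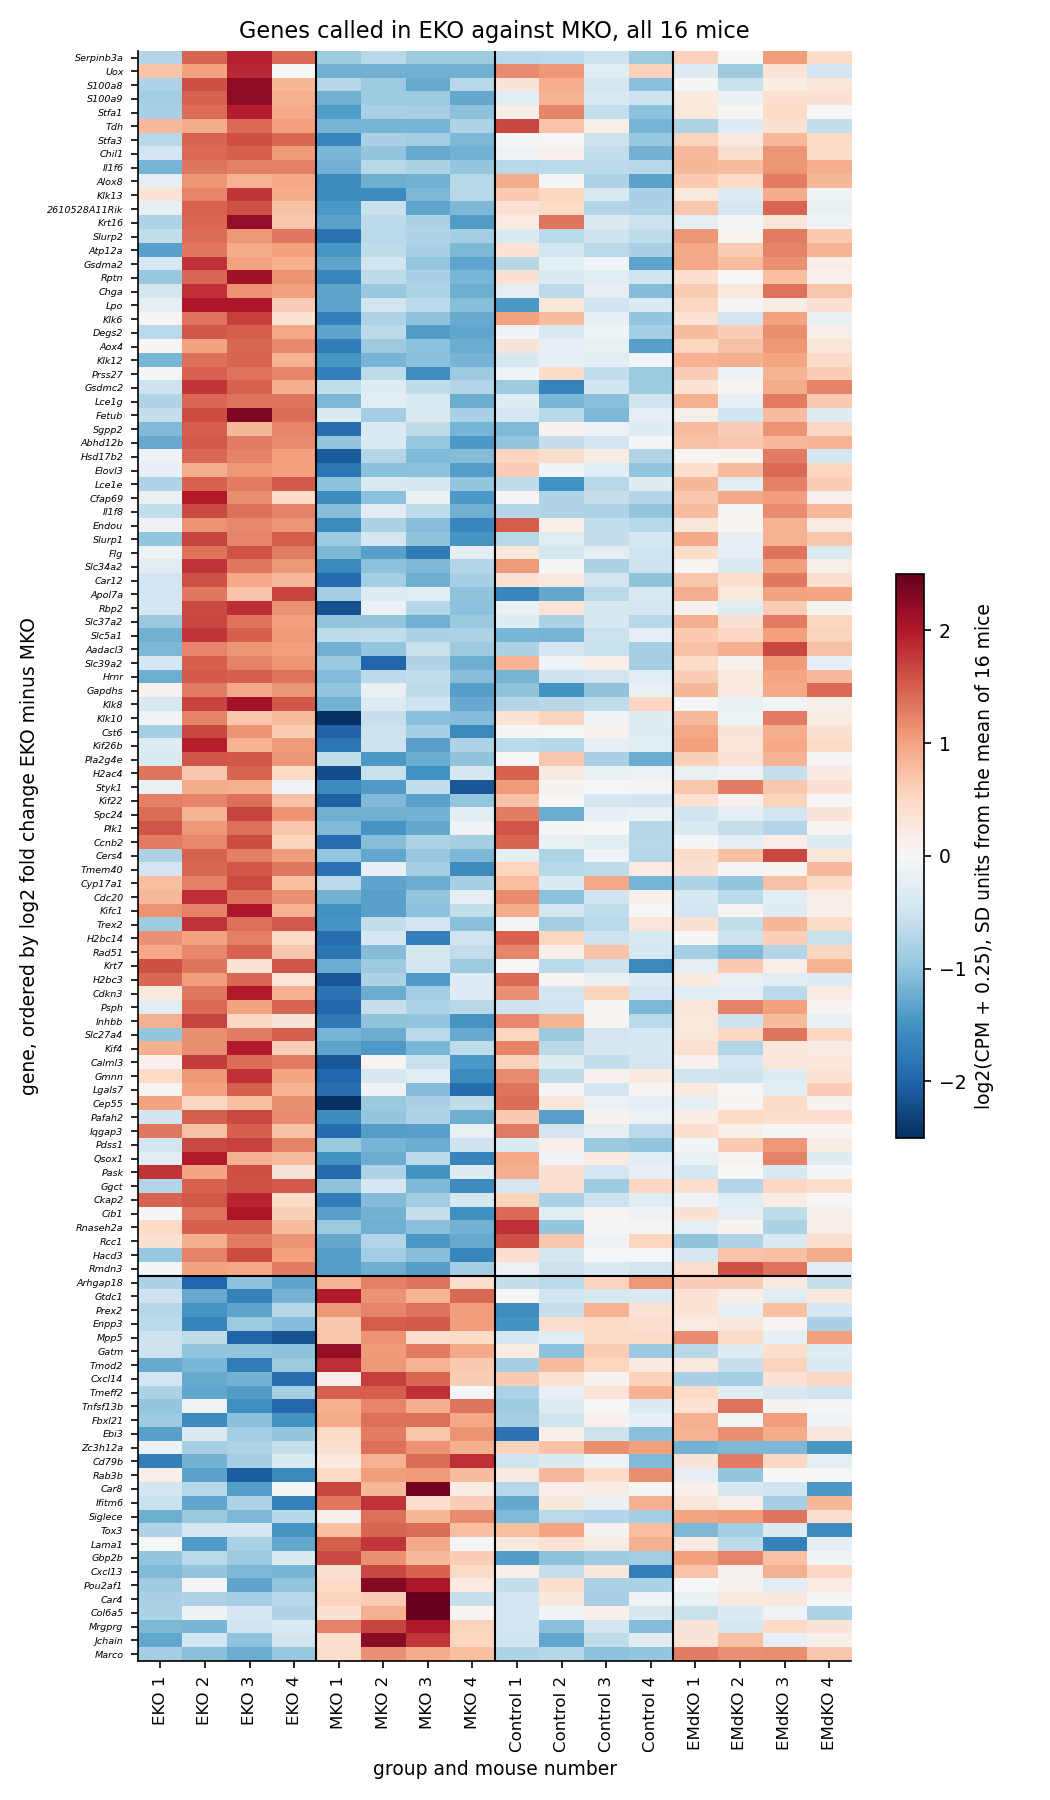
The 117 called genes (rows, ordered by fold change) in each of the 16 mice (columns), with colour for log2(CPM + 0.25) in SD units from the gene's mean over the mice. The first column shows EKO mouse 1 below the other EKO mice over most of the 89 upper rows. Rows were chosen on EKO against MKO, so the contrast between those 8 columns is a result of the choice.

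The targeted gene checks the labels. Zc3h12a was at 11.7, 7.07, 7.40 and 8.41 CPM in EKO mice 1 to 4 and at 17.1, 35, 29.2 and 24.8 CPM in MKO mice 1 to 4. Every EKO mouse was below every MKO mouse. The log2 fold change was -1.62 ± 0.23 (SE, edgeR quasi-likelihood, adjusted p = 0.00834), and an exact two-sided permutation test over mice gave p = 0.0286, the smallest that 4 against 4 mice allow. Against the control mice, at 19.4 to 30.3 CPM, the fit gave -1.52 ± 0.23 for EKO (edgeR adjusted p = 0.082) and 0.10 ± 0.22 for MKO (edgeR adjusted p = 0.914), and these 2 values share the same controls. The MKO label thus has no check from this gene in whole skin, and whether the counted stretch lies in the deleted part of the gene was not tested.

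The genes whose promoters drive the 2 Cre genes, Krt14 and Lyz2, did not pass. Krt14, a keratin of basal keratinocytes, was at 676, 2396, 4127 and 2328 CPM in EKO mice 1 to 4 and at 651, 1364, 1101 and 705 in MKO mice 1 to 4. EKO mouse 1 lay in the MKO range, the log2 fold change was 1.32 ± 0.39 (edgeR adjusted p = 0.116), and without that mouse it was 1.63 (edgeR adjusted p = 0.00583). Lyz2, the lysozyme gene that carries LysMCre, was at 147, 402, 537 and 395 CPM in EKO and at 263, 176, 225 and 209 in MKO, with a log2 fold change of 0.76 ± 0.30 (edgeR adjusted p = 0.216). Leaving out EKO mouse 1 gave 1.03 (edgeR adjusted p = 0.0185). LysMCre is inserted into Lyz2 itself, and what the altered allele adds to or takes from the counted level was not tested.

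IL-36 cytokines are released by stressed keratinocytes and act through the receptor chain Il1rl2 on keratinocytes and dendritic cells. Among 18 tested genes of the IL-1 and IL-36 families, 2 were higher in EKO and 0 lower (11.1% called), and the median log2 fold change was 0.44. Il1f6 (IL-36 alpha) was at 0.516, 92.4, 79.5 and 79.3 CPM in EKO mice 1 to 4 and at 0.47, 1.64, 1.31 and 0.878 in MKO mice. The gene was on in EKO mice 2, 3 and 4 and at the MKO level in EKO mouse 1. Its log2 fold change was 5.83 ± 0.92 (edgeR adjusted p = 0.0118), and 6.24 without EKO mouse 1 (edgeR adjusted p = 2e-08). Il1f8 (IL-36 beta) was at 7.95, 74.4, 56.9 and 49.3 CPM against 5.02, 11.2, 7.75 and 4.39, a log2 fold change of 2.72 ± 0.51 (edgeR adjusted p = 0.0276).

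Il1f9 and Il1a did not pass. Il1f9 (IL-36 gamma) was at 58.5, 325, 252 and 301 CPM in EKO and at 62.7, 121, 76.4 and 49.2 in MKO (log2 fold change 1.60 ± 0.41, edgeR adjusted p = 0.0804). Il1a was at 3.51, 32.4, 29.4 and 40.6 CPM against 4.86, 10.6, 9.65 and 4.52 (1.83 ± 0.50, edgeR adjusted p = 0.0896). The receptor gene Il1rl2 overlapped, at 106 to 159.6 CPM in EKO and 132 to 186 in MKO (-0.30 ± 0.16, edgeR adjusted p = 0.365). With EKO mouse 1 left out, 6 of the 18 genes were called higher, and with MKO mouse 1 left out none was.

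Alarmins and antimicrobial proteins included some of the larger called differences. S100a8 and S100a9 encode the 2 chains of calprotectin, made by activated keratinocytes and by neutrophils. S100a9 was at 0.826, 79.6, 316 and 26.9 CPM in EKO mice 1 to 4 and at 0.314, 0.758, 0.715 and 0.251 in MKO mice. The 4 MKO libraries held at most 6 S100a9 counts each, so the size of the log2 fold change, 7.63 ± 1.47 (edgeR adjusted p = 0.0305), is rough. S100a8 was at 0.413, 70.9, 247 and 15.2 CPM against 0.47, 0.253, 0 and 0.502 (edgeR adjusted p = 0.0389). Chil1, a chitinase-like secreted protein, was at 4.13, 120.2, 137 and 64.1 CPM against 1.10, 1.52, 0.834 and 1.00 (6.18 ± 0.96, edgeR adjusted p = 0.0118). Of the 17 antimicrobial and alarmin genes tested, these 3 were called (17.6%), 15 had positive log2 fold changes and the median was 2.13. With EKO mouse 1 left out 6 were higher and 1 lower, and with MKO mouse 1 left out none was called. S100a8 and S100a9 are also on the list of 8 neutrophil markers, of which the other 6 were not called. The neutrophil score was 0.86 to 3.34 in EKO and 1.01 to 1.25 in MKO, with 4 of the 8 markers positive and 4 negative. Cxcr2 and Mmp8 reached 2.18 and 2.79 CPM in EKO and 0.253 and 0.379 in MKO, whereas Retnlg reached 2.27 and 26.1 (in MKO mouse 3), and the neutrophils' part in the S100a8 and S100a9 difference was not tested.

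Inhibitors of cysteine and serine proteases accompany cornification and inflammation of the epidermis. Of 13 tested stefin and serpin B genes, 4 were higher in EKO and 0 lower (30.8%), with a median log2 fold change of 1.95. Stfa3, a stefin A inhibitor of cysteine proteases, was at 12.4, 721, 992 and 698 CPM in EKO mice 1 to 4 and at 1.88, 9.98, 9.18 and 5.4 in MKO mice (6.50 ± 1.02, edgeR adjusted p = 0.0118). Its relative Stfa1 was at 0.516, 50.1, 153 and 21.8 CPM against 0, 0.506, 0.477 and 0.251 (edgeR adjusted p = 0.047). In both, EKO mouse 1 lay just above the MKO mice and far below the other EKO mice. Serpinb3a, a serine protease inhibitor of the squamous cell antigen family, was at 0.103, 24, 61.2 and 22.6 CPM in EKO, while the 4 MKO libraries held 1 count together against 952 in EKO (edgeR adjusted p = 0.0137). The ratio of these counts, scaled for library size, was 789, with an exact 95% interval of 141 to 31180.3 that covers counting error only. Cst6, which restrains cathepsins in the cornified layer, was at 249, 1323, 915 and 662 CPM against 112, 305, 249 and 148 (1.95 ± 0.40, edgeR adjusted p = 0.0371). Stefin A and serpin B3 genes are near-identical families, and how the authors' counting divided reads among copies is not given in the sources used here. Leaving out EKO mouse 1, 8 of the 13 were higher, and without MKO mouse 1 none.

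**Figure D3:**
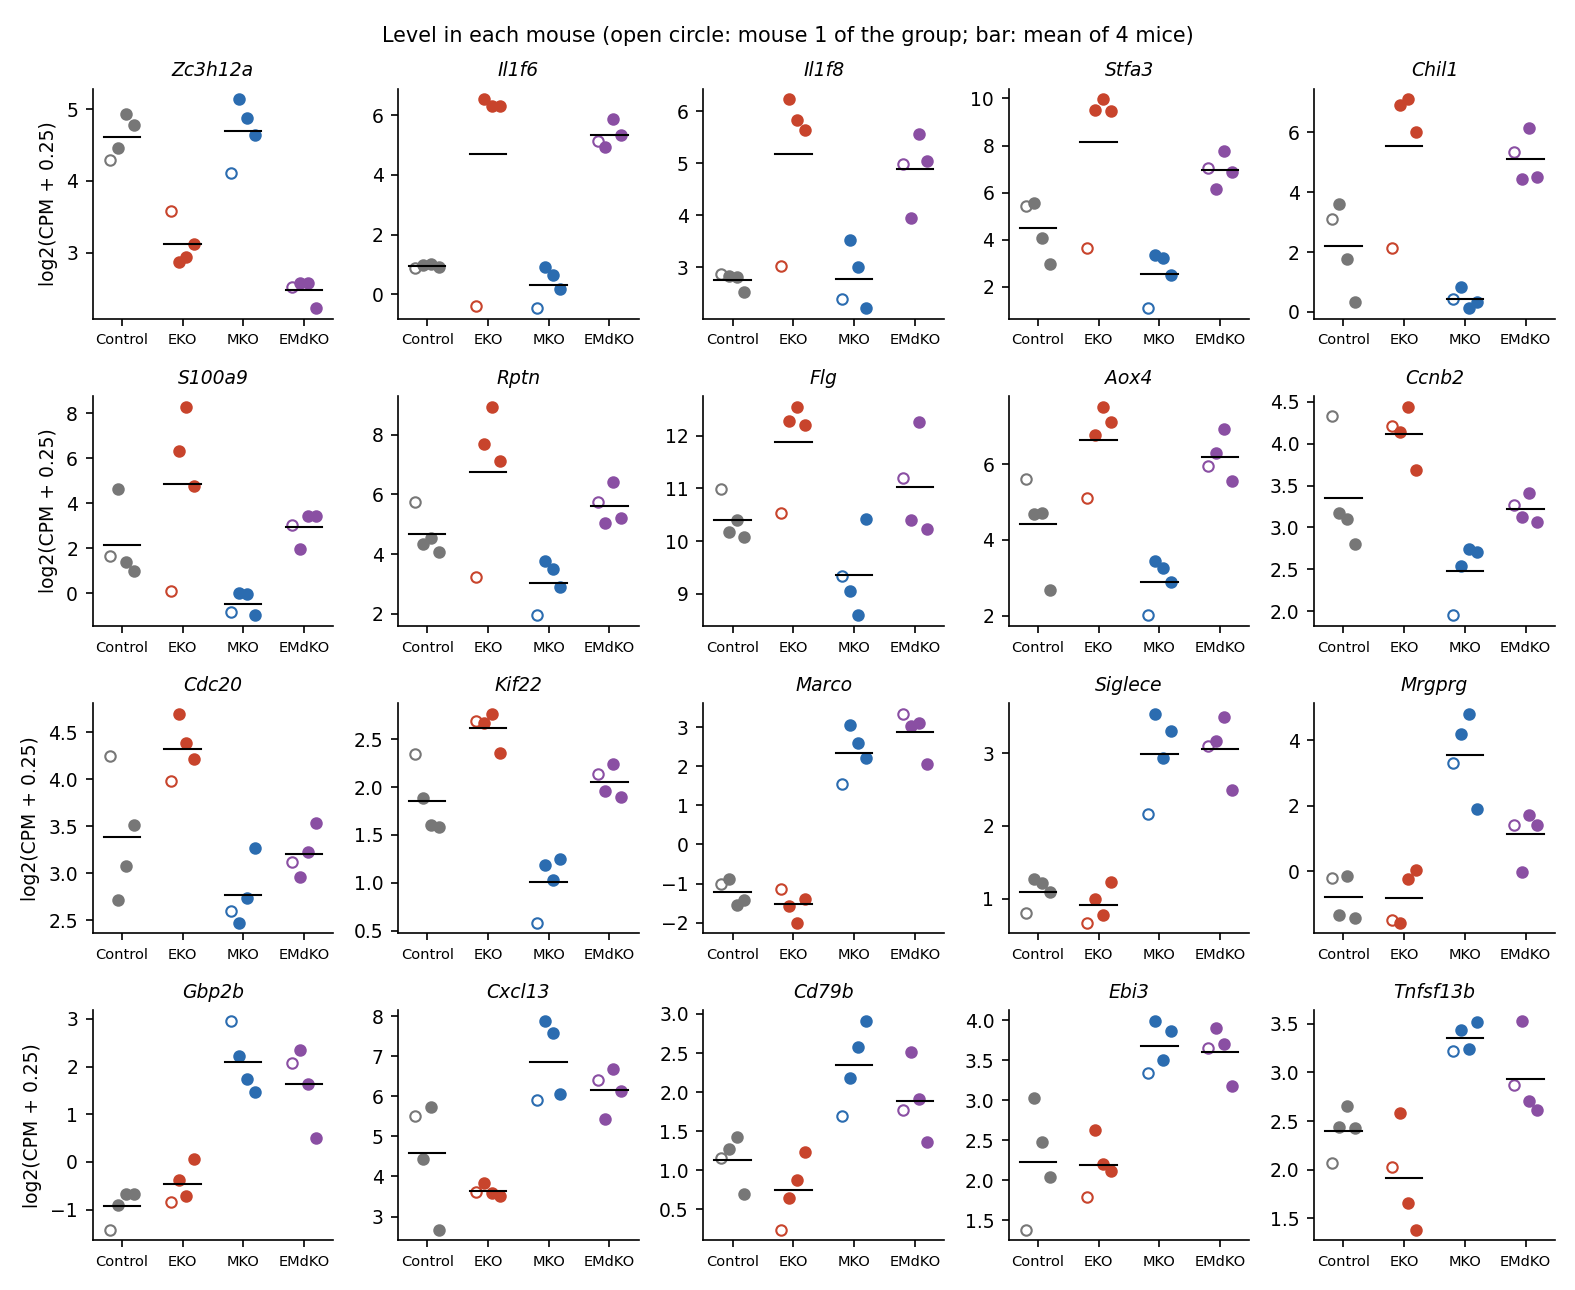
Log2(CPM + 0.25) of 20 genes (vertical axes, 1 panel a gene) in each mouse of the 4 groups, with open circles for mouse 1 of a group and bars for the mean of 4 mice. In Il1f6, Il1f8, Stfa3, Chil1 and S100a9 the open EKO circle sits near the MKO mice, whereas in Kif22, Marco, Siglece and Gbp2b it sits with the other EKO mice.

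The cornified layer is built from proteins of the epidermal differentiation complex, cross-linked under the plasma membrane, while kallikrein proteases cut its junctions and process filaggrin and antimicrobial peptides. Of 22 tested cornified envelope genes, 5 were higher in EKO and 0 lower (22.7%), 21 were positive and the median log2 fold change was 2.19. Rptn, a repetin of the cornified envelope, was at 9.19, 207, 492 and 138 CPM in EKO mice 1 to 4 and at 3.61, 13.5, 11.2 and 7.15 in MKO mice (4.57 ± 0.83, edgeR adjusted p = 0.0217). Flg, whose product filaggrin bundles keratin and yields natural moisturising factor, was at 1472, 4971, 6001 and 4686 CPM against 647, 533, 385 and 1361 (2.55 ± 0.52, edgeR adjusted p = 0.0371). No EKO mouse overlapped with MKO for Flg, while EKO mouse 1 did for Rptn. Hrnr, a filaggrin relative, was at 92.8, 684, 659 and 602 CPM against 102, 139.8, 143 and 104 (2.06 ± 0.43, edgeR adjusted p = 0.0371), and the late envelope genes Lce1e and Lce1g completed the 5. Flg2 (0.17 ± 0.34, edgeR adjusted p = 0.834) and the loricrin gene Lor (0.57 ± 0.37, edgeR adjusted p = 0.455) overlapped between groups, so the list was not uniform.

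Among 16 tested kallikrein and other epidermal protease genes, all had positive log2 fold changes (median 1.31) and 5 were higher in EKO (31.2%), namely Klk6, Klk8, Klk10, Klk13 and Prss27. Klk13 was at 16.4, 63.7, 151 and 40.6 CPM in EKO mice 1 to 4 and at 0.627, 0.632, 1.55 and 3.26 in MKO mice (5.45 ± 0.96, edgeR adjusted p = 0.0182). Klk6 was at 25.1, 128, 204 and 36.1 CPM against 2.51, 8.59, 6.32 and 4.52 (4.15 ± 0.87, edgeR adjusted p = 0.0389). In both kallikreins even EKO mouse 1 stood above every MKO mouse. Prss27, a serine protease, was at 3.82, 19.1, 16.9 and 14.5 CPM against 0.47, 1.90, 0.596 and 1.38 (3.61 ± 0.60, edgeR adjusted p = 0.0137). Klk7, the main desquamation protease, did not pass (1.07 ± 0.29, edgeR adjusted p = 0.0875). Without EKO mouse 1, 10 cornified envelope and 10 protease genes were higher, and without MKO mouse 1 none of either.

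Rptn and Flg lie in the same gene complex and were both called higher. Their promoters are shown because each holds the same pair of short motifs, so that the sharing is a result of the choice. The stretches run from 150 bases before to 30 after the RefSeq start site in GRCm38.p6, chr3:93393549-93393728 on the plus strand for Rptn and chr3:93273396-93273575 on the plus strand for Flg. Capitals mark an AP-1 site (TGANTCA) and a TATA box (TATAAA), searched on both strands, and no marked motifs overlap.
Rptn: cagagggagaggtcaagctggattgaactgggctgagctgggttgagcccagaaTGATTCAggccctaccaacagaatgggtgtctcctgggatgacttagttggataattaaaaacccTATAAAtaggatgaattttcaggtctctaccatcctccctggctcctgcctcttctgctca
Flg: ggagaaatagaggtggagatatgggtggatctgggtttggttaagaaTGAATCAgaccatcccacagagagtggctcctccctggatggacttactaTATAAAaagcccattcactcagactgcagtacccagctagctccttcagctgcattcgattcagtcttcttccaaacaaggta
The AP-1 match lies 96 bases before the start in Rptn and 103 in Flg, and the TATA match 31 and 53 bases before it. Of the 51 tested cornified envelope, protease, stefin and serpin B genes 43 had a RefSeq promoter, and over windows of 300 bases (250 before to 50 after the start) 15 of them (34.9%) held the AP-1 letters, compared with 5.6% of tested genes and 7.9% of all 27025 promoters. The TATA letters were also in 15 (34.9%), against 8.3% of tested genes and 14.2% of all promoters. Among the 71 called higher genes with a promoter, 7 (9.9%) held the AP-1 letters. Of the other called cornified envelope genes, Hrnr held the TATA letters without the AP-1 letters, and Lce1e and Lce1g held neither. These matches describe the sequence and no binding was measured.

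The lists of keratins and keratinocyte genes of the living layers gave 1 call. Krt7, on none of these lists, was also called higher (1.54), at 1.46 to 2.68 CPM in EKO and 0.627 to 0.953 in MKO. Krt16, a stress keratin of wounded and hyperproliferative epidermis, was at 21.6, 419, 1165 and 153 CPM in EKO mice 1 to 4 and at 10, 25.5, 21.2 and 9.29 in MKO mice (4.73 ± 1.02, edgeR adjusted p = 0.0429). Krt1, the keratin of suprabasal cells, was at 458, 3889.9, 5036 and 4572 CPM against 680, 992, 859.8 and 703 (2.11 ± 0.53, edgeR adjusted p = 0.0704). Here EKO mouse 1 was below all 4 MKO mice, and without it Krt1 passed (2.48, edgeR adjusted p = 0.00101). Of the 14 suprabasal and 11 basal keratinocyte genes tested none was called, with median log2 fold changes of 0.42 and -0.10. Of 15 stress keratin and wound genes 1 was called, with a median of 0.32 (2 called without EKO mouse 1 and 0 without MKO mouse 1).

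Further epidermal genes outside these families were among the 12 largest called differences with a mean log2 CPM of 1 or more and no overlap between groups. Alox8, a lipoxygenase of differentiating epidermis, was at 19.0, 268, 168 and 195 CPM in EKO and 1.10, 2.53, 2.74 and 7.65 in MKO (5.51 ± 1.23, edgeR adjusted p = 0.047). Slurp2, a secreted Ly6 protein of keratinocytes, was at 12.7, 328, 195 and 284 CPM against 1.57, 11.6, 10.1 and 8.66 (4.67 ± 0.83, edgeR adjusted p = 0.0191). Aox4, an aldehyde oxidase, was at 34.3, 109, 184 and 139 CPM against 3.76, 10.7, 9.29 and 7.15 (3.90 ± 0.59, edgeR adjusted p = 0.0113). The remaining 3 were 2610528A11Rik, the mouse gene of the GPR15 ligand (4.96 ± 1.11, edgeR adjusted p = 0.047), the secretory granule gene Chga (4.33 ± 0.75, edgeR adjusted p = 0.0178) and the peroxidase gene Lpo (4.21 ± 0.80, edgeR adjusted p = 0.0294). The choice of these genes required that the groups did not overlap, which left out called genes such as Atp12a (4.65) whose mice did. The required level left out separated genes with larger differences, such as Uox (8.85) and Tdh (7.34). Aox4 was called in 15 of the 16 fits without a library (not without MKO mouse 3). Alox8, Slurp2, 2610528A11Rik, Chga and Lpo were called in 5 to 11 of them.

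Among the lipid lists 1 gene was called. Elovl3, a fatty acid elongase of sebaceous gland and hair follicle, was at 50.1, 145, 169.8 and 160 CPM in EKO mice 1 to 4 and at 10.8, 22.6, 22.8 and 16.4 in MKO mice, with no overlap (2.85 ± 0.47, edgeR adjusted p = 0.0137). Of 20 sebaceous gland genes this was the 1 called (5.0%), with a median of 0.94. Awat1, which makes wax esters of sebum, was at 4.34, 57.9, 36.5 and 32.8 CPM against 4.39, 9.10, 7.27 and 3.64 (2.43 ± 0.57, edgeR adjusted p = 0.0574). Among 23 barrier lipid enzymes 0 were called and 19 were positive (median 0.44), the smallest p being that of the lipase gene Lipk (2.01 ± 0.46, edgeR adjusted p = 0.0521). When EKO mouse 1 was left out, 10 sebaceous and 8 barrier lipid genes were higher. Degs2 and Cers4, lipid enzyme genes on neither list, were called higher in EKO (3.92 and 1.64), so these counts hold for the lists as written.

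Several mitotic genes were higher in EKO. Each of the 30 cell cycle genes tested was positive (median log2 fold change 1.06), against 47.7% of all tested genes. Of these 30 genes, 3 were called and 28 had an unadjusted p under 0.05. Among all tested genes the shares were 0.858% and 16.9%, counting both directions. Ccnb2, a B-type cyclin that drives entry into mitosis, was at 18.2, 17.4, 21.5 and 12.6 CPM in EKO mice 1 to 4 and at 3.61, 5.56, 6.43 and 6.27 in MKO mice (1.66 ± 0.30, edgeR adjusted p = 0.0217). Cdc20, which switches on the ubiquitin ligase that starts anaphase, was at 15.6, 25.7, 20.6 and 18.3 CPM against 5.80, 5.31, 6.43 and 9.41 (1.57 ± 0.30, edgeR adjusted p = 0.0276). Plk1, a mitotic kinase, was at 14.8, 11.3, 13.2 and 9.06 CPM against 3.29, 2.65, 2.98 and 5.90 (1.70 ± 0.36, edgeR adjusted p = 0.0389). EKO mouse 1 lay within the range of the other EKO mice for Ccnb2, above them for Plk1 and below them for Cdc20, and in all 3 genes above every MKO mouse.

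Further called mitotic genes, outside the list of 30, were 2 kinesin genes that were chosen after their values were seen. Kif22 was at 6.19, 6.11, 6.55 and 4.86 CPM in EKO mice 1 to 4 and at 1.25, 2.02, 1.79 and 2.13 in MKO mice (1.71 ± 0.24, edgeR adjusted p = 0.00834). Kifc1 was at 19.9, 20.8, 29.5 and 17.7 CPM against 6.11, 6.57, 7.63 and 9.16 (1.57 ± 0.23, edgeR adjusted p = 0.0104). Both groups were fully separated in each gene. The proliferation marker Mki67 was separated too, at 38.5 to 53.8 CPM against 12.1 to 36.8, but did not pass (1.03 ± 0.43, edgeR adjusted p = 0.237). The cell cycle score, the mean log2 CPM of the 30 genes, was 4.20 to 4.66 in EKO, 2.71 to 3.90 in MKO, 3.59 to 4.74 in controls and 3.62 to 3.87 in EMdKO. Of the 30, 10 were called without EKO mouse 1, 0 without MKO mouse 1 and 2 without both.

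The promoters of Ccnb2, Cdc20, Kifc1 and Kif22 are shown for 2 elements that mark genes transcribed in G2 and M phase. That of Plk1, whose window of 300 bases also held both, is not shown. The stretches are taken as above from RefSeq in GRCm38.p6, at chr9:70421525-70421704 on the minus strand for Ccnb2, chr4:118437314-118437493 on the minus strand for Cdc20, chr17:33890604-33890783 on the minus strand for Kifc1 and chr7:127042391-127042570 on the minus strand for Kif22. Capitals mark the CCAAT box (CCAAT, or ATTGG on the other strand) and the cell cycle homology region, CHR (TTTGAA, or TTCAAA), and no marked motifs overlap.
Ccnb2: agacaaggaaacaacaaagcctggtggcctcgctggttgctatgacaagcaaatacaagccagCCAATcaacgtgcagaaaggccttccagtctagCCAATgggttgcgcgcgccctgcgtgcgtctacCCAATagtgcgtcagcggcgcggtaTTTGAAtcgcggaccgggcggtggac
Cdc20: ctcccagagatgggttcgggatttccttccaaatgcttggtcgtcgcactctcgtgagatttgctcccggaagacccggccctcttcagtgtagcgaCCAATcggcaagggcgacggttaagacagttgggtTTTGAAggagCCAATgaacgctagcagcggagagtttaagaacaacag
Kifc1: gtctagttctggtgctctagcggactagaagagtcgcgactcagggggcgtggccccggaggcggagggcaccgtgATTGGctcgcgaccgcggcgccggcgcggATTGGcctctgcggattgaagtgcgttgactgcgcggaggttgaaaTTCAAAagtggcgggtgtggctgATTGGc
Kif22: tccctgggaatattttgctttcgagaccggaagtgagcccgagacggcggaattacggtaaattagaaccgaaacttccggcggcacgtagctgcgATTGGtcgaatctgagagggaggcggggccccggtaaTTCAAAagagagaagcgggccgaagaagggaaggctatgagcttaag
Of the 30 cell cycle genes 23 had a RefSeq promoter. Over the windows of 300 bases 19 of the 23 (82.6%) held a CCAAT box, compared with 37.6% of tested genes and 37.9% of all promoters. The CHR letters were in 12 of 23 (52.2%), against 12.2% of tested genes and 18.1% of all promoters. Among the 71 called higher genes with a promoter, 25 (35.2%) held a CCAAT box and 21 (29.6%) the CHR letters. No binding was measured, and the list was written from known mitotic genes.

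Hair follicle and pigment genes had large positive medians, with overlapping mice and no call. The 31 tested genes of hair shaft and inner root sheath were all positive, with a median of 4.16, and 0 passed. The hair shaft score was 6.25, 3.17, 4.54 and 0.87 in EKO mice 1 to 4, -1.01, -0.77, -0.82 and 2.66 in MKO mice, 9.02, 6.30, 4.44 and -0.86 in controls, and 0.53, -0.88, 6.31 and -0.76 in EMdKO mice. The groups overlapped, and the spread within each genotype was wide, since MKO mouse 4 stood above EKO mouse 4. Without MKO mouse 4 the median was 8.26 and without EKO mouse 1 it was 2.79. Among 10 melanocyte genes 8 were positive with 0 called (median 2.77), and the pigment enzyme gene Tyrp1 was at 3.31 to 64.4 CPM in EKO and 0.758 to 8.78 in MKO. A fit that included this score as a covariate called 35 genes higher and 18 lower, of which 31 and 13 were among the 117. In that fit 3 cornified envelope, 4 protease, 2 stefin and serpin B, 3 IL-1 and IL-36 and 1 cell cycle gene were higher. The follicle's part in the other differences was not tested beyond this covariate.

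**Figure D4:**
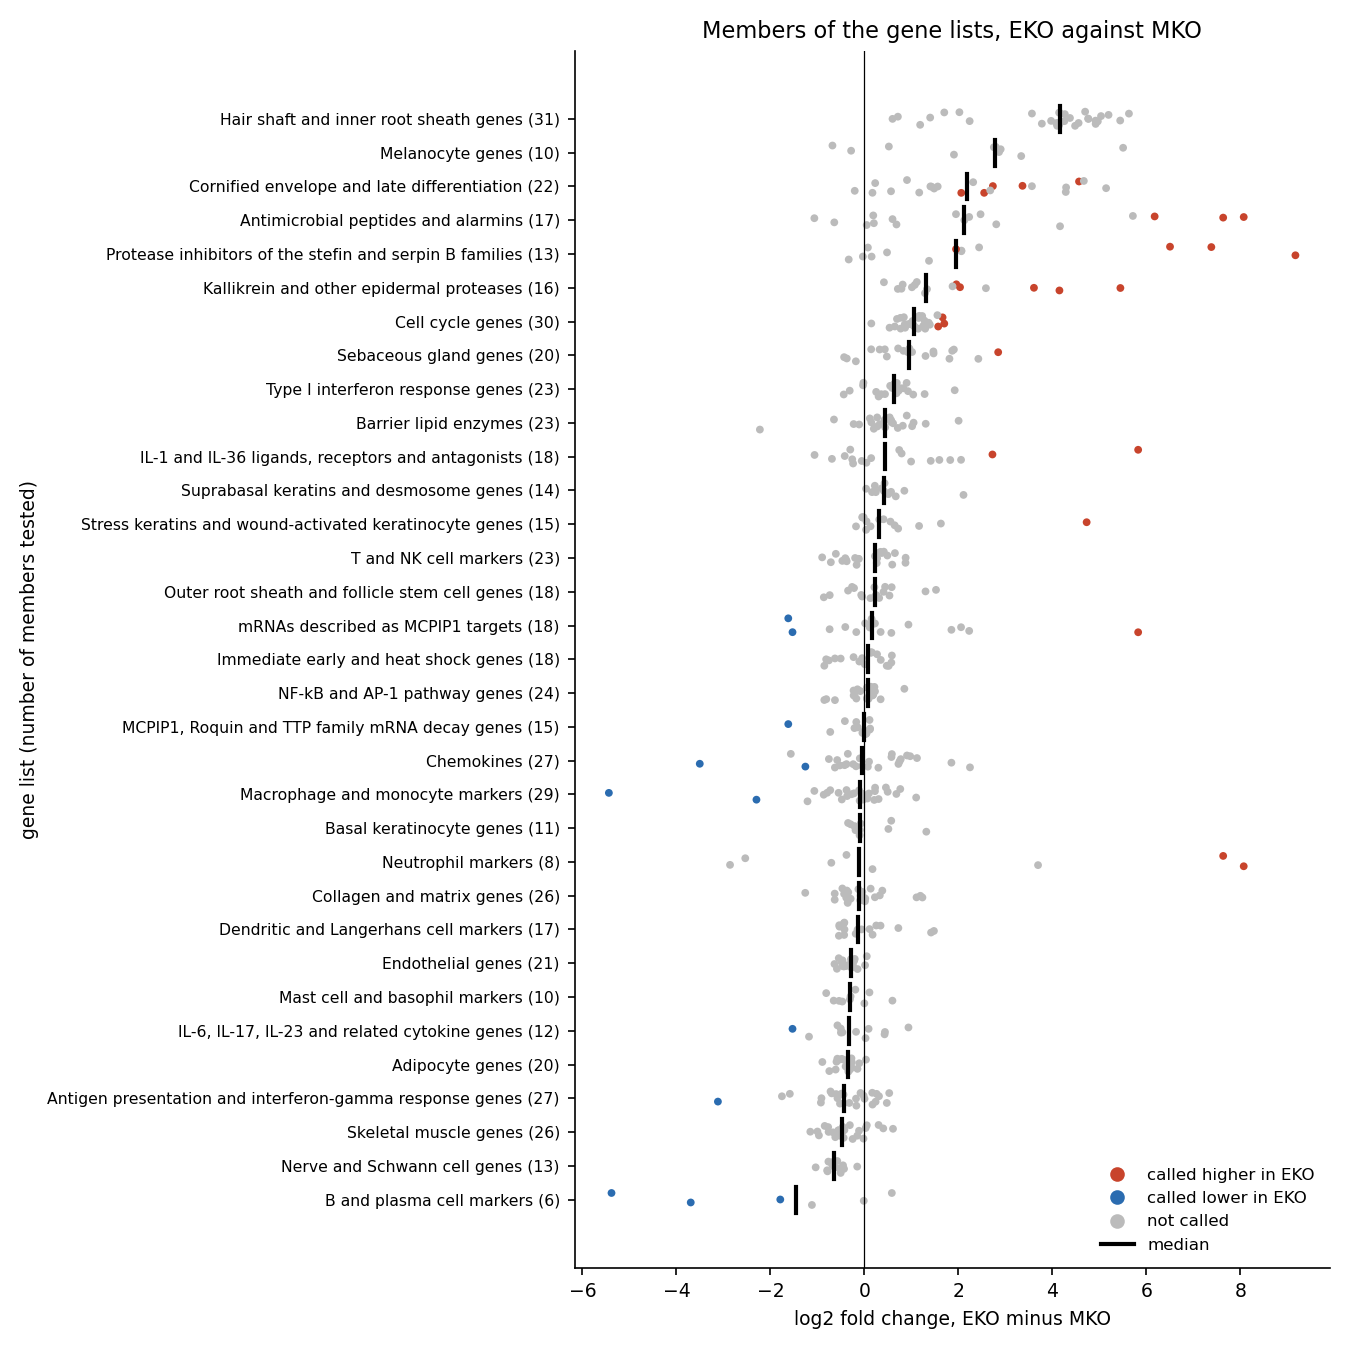
Log2 fold change of EKO over MKO (horizontal axis) for each tested member of the gene lists with at least 3 tested members (rows, ordered by median, number of members in brackets). Red and blue points are members called higher and lower in EKO, grey points were not called and black bars are medians. Hair shaft genes have the largest median, 4.16, with no member called, and B and plasma cell markers the lowest, -1.45.

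Among genes lower in EKO were 2 receptors of macrophages. Marco, a scavenger receptor for bacteria and particles, was at 0.206, 0.0872, 0 and 0.131 CPM in EKO mice 1 to 4 and at 2.66, 8.09, 5.84 and 4.39 in MKO mice. The EKO libraries held 4 Marco counts together and the MKO libraries 165, so the direction is firm and the size rough (log2 fold change -5.44 ± 0.55, edgeR adjusted p = 0.000423, the smallest of all genes). Siglece, an inhibitory receptor for sialic acids on myeloid cells, was at 1.34, 1.74, 1.46 and 2.10 CPM against 4.23, 11.4, 7.39 and 9.66 (-2.30 ± 0.31, edgeR adjusted p = 0.00834). EMdKO mice, which carry both Cre genes, were at 3.89 to 9.94 CPM for Marco and 5.36 to 11 for Siglece, and EMdKO exceeded EKO in both (5.96 and 2.33, edgeR adjusted p = 9.85e-05 and 0.00806). These were the 2 genes called between EMdKO and EKO, 0.0147% of those tested.

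No other macrophage marker on the list was called. Of 29 tested macrophage and monocyte genes Marco and Siglece were the 2 called (6.9%), 12 were positive and the median was -0.10. Csf1r, the receptor of the growth factor that macrophages depend on, was 0.06 ± 0.22 (edgeR adjusted p = 0.914), Cd68 was at 45.6 to 70.1 CPM in EKO and 37.6 to 53.8 in MKO, and Mrc1 at 83.3 to 116 and 85.2 to 127. Itgam (CD11b), shared by monocytes, macrophages and neutrophils, was separated without passing, at 45.5, 54.3, 54.0 and 46.4 CPM in EKO and 94.8, 91.2, 149.5 and 127 in MKO (-1.21 ± 0.30, edgeR adjusted p = 0.0644). Adgre1 (F4/80) was separated as well, at 10.9 to 24 CPM and 26.3 to 39.7 (-0.87 ± 0.25, edgeR adjusted p = 0.104). The macrophage score was 3.78 to 4.17 in EKO and 4.22 to 4.38 in MKO, but without Marco and Siglece it overlapped, at 4.08 to 4.53 and 4.29 to 4.56. The list median ran from -0.22 to 0.01 when single EKO or MKO mice were left out (without EKO mouse 3 and EKO mouse 4), and Marco and Siglece were called without EKO mouse 1 and without MKO mouse 1. Mrgprg, a Mas-related receptor gene, was at 0.103, 0.0872, 0.607 and 0.788 CPM in EKO and 9.56, 17.9, 27.9 and 3.51 in MKO (-5.28 ± 0.74, edgeR adjusted p = 0.00834), with at most 6 counts in an EKO library, and it was named after its values were seen.

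A B cell chemokine, a B cell survival factor and 3 B or plasma cell markers were lower in EKO. Cxcl13, the chemokine that draws B cells into follicles, was at 11.9, 14, 11.8 and 11.2 CPM in EKO mice 1 to 4 and at 59.4, 236, 191 and 66.8 in MKO mice (-3.50 ± 0.57, edgeR adjusted p = 0.0137). Tnfsf13b, which encodes the B cell survival factor BAFF, was at 3.82, 5.76, 2.91 and 2.36 CPM against 9.09, 10.6, 9.18 and 11.2 (-1.41 ± 0.27, edgeR adjusted p = 0.0324). For both genes the groups did not overlap. Of 21 B and plasma cell markers written 6 had enough counts to be tested, 3 were lower (2 without MKO mouse 1, 3 without EKO mouse 1) and the median log2 fold change was -1.45. Cd79b, a chain of the B cell receptor complex, was at 0.929, 1.31, 1.58 and 2.10 CPM against 2.98, 4.30, 5.72 and 7.28 (-1.79 ± 0.35, edgeR adjusted p = 0.0327).

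The 2 other called markers rest mainly on MKO mice 2 and 3. Jchain, which joins secreted IgA and IgM, was at 0, 0.523, 0.121 and 0.525 CPM in EKO and 2.35, 30.2, 16 and 2.76 in MKO (-5.38 ± 0.94, edgeR adjusted p = 0.0178). Pou2af1, a coactivator of antibody genes, was at 0.31, 1.05, 0.121 and 0.263 CPM against 1.88, 12.1, 9.18 and 1.38 (-3.69 ± 0.74, edgeR adjusted p = 0.0369). The EKO libraries held at most 6 Jchain and 12 Pou2af1 counts. The pan-B marker Ms4a1 was at or near 0 in both groups, reaching 0.349 CPM in EKO and 0.253 in MKO.

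Of 27 tested chemokine genes, Cxcl13 and Cxcl14 were lower in EKO and 0 higher (7.41%), also without EKO mouse 1 or MKO mouse 1, and the median was -0.04. Cxcl14, a chemokine made in quantity by normal epidermis and dermis, was at 119, 87.3, 90 and 67.7 CPM in EKO against 153, 282, 252 and 183 in MKO (-1.26 ± 0.23, edgeR adjusted p = 0.0244). The eosinophil attractant gene Ccl11 was separated without passing (-1.56 ± 0.44, edgeR adjusted p = 0.0947). Ebi3, the shared subunit of IL-27 and IL-35, was at 3.20, 5.93, 4.37 and 4.07 CPM against 9.88, 15.7, 11.1 and 14.3 (-1.53 ± 0.31, edgeR adjusted p = 0.0362).

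Interferon-gamma response and antigen presentation genes gave 1 call among 27 (3.70%), with 19 negative and a median of -0.44. Gbp2b, an interferon-inducible GTPase of cell-autonomous defence, was at 0.31, 0.523, 0.364 and 0.788 CPM in EKO and 7.52, 4.42, 3.10 and 2.51 in MKO (-3.12 ± 0.50, edgeR adjusted p = 0.012), with at most 6 counts in an EKO library. Gbp4 was separated in every mouse, at 20.0 to 31.7 CPM against 40.8 to 134, without passing (-1.75 ± 0.52, edgeR adjusted p = 0.114). So was the MHC class II gene H2-Aa, at 521 to 687 CPM against 898 to 1409 (-0.91 ± 0.29, edgeR adjusted p = 0.137). Type I interferon response genes leaned the other way without a call, 19 of 23 positive with a median of 0.64.

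The remaining genes among the 12 lowest with a mean log2 CPM of 1 or more and no overlap were of mixed function. That rule left out called genes further down, such as Marco (-5.44) and Tox3 (-2.49) for their level and Lama1 (-2.71) for overlap. Ifitm6, an interferon-induced transmembrane protein, was at 21.6, 12.7, 18.4 and 9.59 CPM in EKO and 81.5, 115, 43.0 and 49.3 in MKO (-2.21 ± 0.46, edgeR adjusted p = 0.0371). Col6a5, a collagen VI chain, was at 3.82, 9.07, 6.31 and 4.07 CPM against 17.4, 33.1, 713 and 11.4 (-5.05 ± 1.09, edgeR adjusted p = 0.0429), and Car4, a carbonic anhydrase, at 1.82 to 2.10 CPM against 7.21, 7.84, 89.1 and 2.38 (-3.79 ± 0.85, edgeR adjusted p = 0.047). In these last 2 genes MKO mouse 3 held most of the signal. Car8 (-2.04 ± 0.43, edgeR adjusted p = 0.0404), the vesicle GTPase gene Rab3b (-1.97 ± 0.43, edgeR adjusted p = 0.0468) and the F-box gene Fbxl21 (-1.52 ± 0.25, edgeR adjusted p = 0.0138) completed the set.

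Genes tied to MCPIP1 itself were described in the same way. Of 18 tested mRNAs described as its targets, Il1f6 was higher in EKO and Ebi3 and Zc3h12a were lower (16.7% called, against 0.858% of all tested genes). Zc3h12a is the targeted gene itself, so its call does not describe an effect on a target mRNA, and the 16.7% is raised by counting it. Of the 18, 13 were positive and the median log2 fold change was 0.17. Il1b was at 25.7 CPM in EKO mouse 3, at most 3.40 in the other EKO mice and 1.31 to 2.91 in MKO mice (2.06 ± 0.97, edgeR adjusted p = 0.294). Tnf overlapped (0.94 ± 0.73, edgeR adjusted p = 0.542), and Il6 had too few counts to be tested, at most 2 in a library of either group. Of 15 genes of the MCPIP1, Roquin and tristetraprolin families of mRNA decay, Zc3h12a was the 1 called, and its relatives Zc3h12b (-0.73 ± 0.31, edgeR adjusted p = 0.251) and Zc3h12c (0.12 ± 0.20, edgeR adjusted p = 0.796) and the Roquin gene Rc3h1 (adjusted p = 0.995 in edgeR) were not. The score of these 15 was 5.52 to 5.59 in EKO and 5.68 to 5.82 in MKO, and without Zc3h12a itself it was 5.67 to 5.79 and 5.79 to 5.87, so that the groups nearly touched.

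Markers of other tissue components gave no call. All 13 nerve and Schwann cell genes, 19 of 21 endothelial genes and 21 of 26 skeletal muscle genes had negative log2 fold changes (medians -0.64, -0.29 and -0.47), with 0 called in each. The nerve score was 3.61 to 3.73 in EKO and 4.08 to 4.68 in MKO, and the endothelial score 4.11 to 4.42 and 4.47 to 4.82, so neither overlapped, while the muscle score did, at 9.41 to 10.51 and 9.63 to 11.36. The muscle median was 0.07 without MKO mouse 1. In MKO these scores and the muscle score were highest in mouse 1. Scores were compared for the 33 lists with at least 3 tested members. Those of 3 were higher in every EKO mouse than in any MKO mouse (cornified envelope, proteases, cell cycle). Those of 6 were lower (the IL-6 and IL-17 list, macrophage, B and plasma cell, endothelial, nerve and mRNA decay genes) and those of 24 overlapped. In the IL-6 and IL-17 list 12 of 28 written members were tested. Il6 had too few counts to be tested and Il17a was at 0 in all 16 libraries, so that score does not measure them. The cornified envelope list holds the hair genes Tchh and Tchhl1, and without them its score overlapped, at 5.11 to 7.54 in EKO and 4.51 to 5.42 in MKO. The part of tissue composition in the called genes was not tested, beyond the covariate fits.

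**Figure D5:**
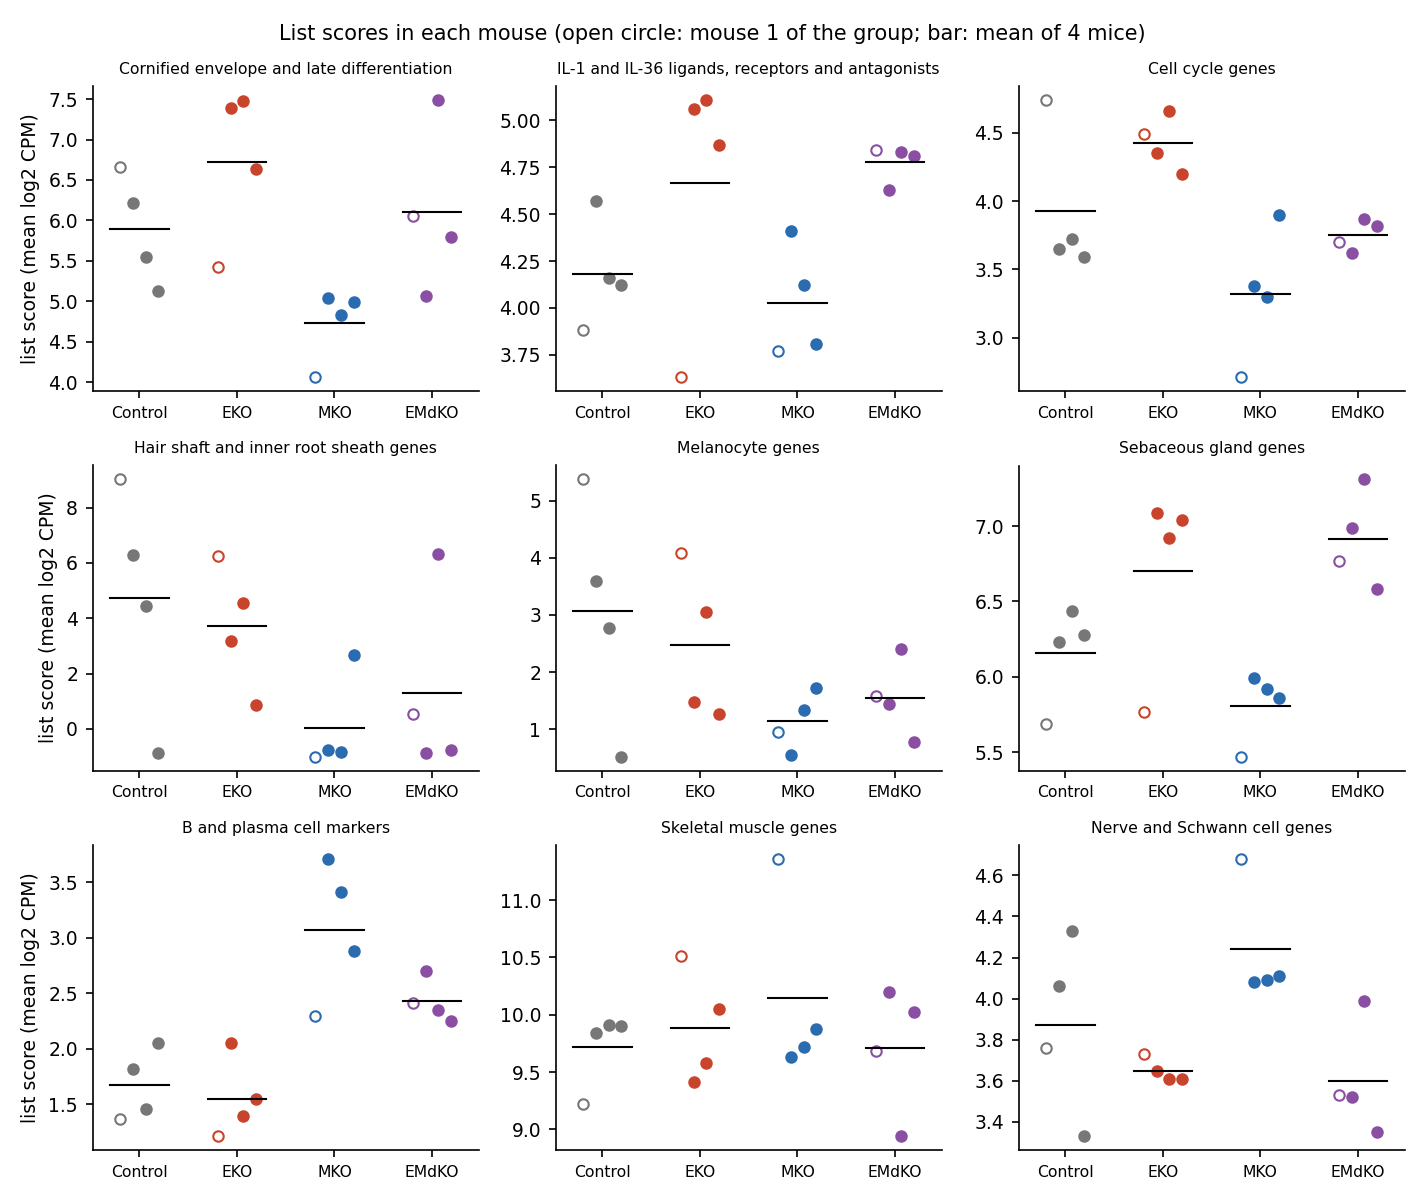
List scores (mean log2 CPM of the tested members, vertical axes) for 9 lists in each mouse of the 4 groups, with open circles for mouse 1 of a group and bars for the mean of 4 mice. The cell cycle score separates EKO from MKO in every mouse, whereas the hair shaft score spreads over most of its range within controls, and the muscle score is highest in MKO mouse 1.

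The place of the control mice was read for each called gene. Against the shared controls the 89 higher genes had median log2 fold changes of 1.15 in EKO and -0.86 in MKO, and the 28 lower genes -0.59 in EKO and 1.01 in MKO. The genes were chosen for a gap between EKO and MKO, so any other group tends to fall inside it. The control mean was nearer MKO in 54 of the 89 and nearer EKO in 19 of the 28. Among all 13633 tested genes it was nearer MKO in 6472 and nearer EKO in 7161. Between EKO and control edgeR called 0 of 13633 genes, with 940 (6.9%) at an unadjusted p under 0.05, and 4 were called in MKO against control (Marco, Siglece, Gbp2b and Mrgprg, 0.0293%). Of the 117 genes called between the single knockouts, these 4 were thus the ones also called against control.

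Mice with both Cre genes lay nearer EKO in most of the higher genes. The EMdKO mean was nearer EKO than MKO in 68 of the 89 higher genes (76.4%), in 13 of the 28 lower genes and in 49.31% of all tested genes. Il1f6 was at 34.9, 30.4, 58.5 and 40.7 CPM in EMdKO mice 1 to 4 and at 1.61 to 1.78 in controls, and Aox4 at 62, 78.7, 122 and 46.7 against 6.12 to 48.2. The EMdKO mean exceeded the control mean in 63 of the 89 (70.79%, against 47.09% of all genes), yet 0 of the 89 were called between EMdKO and control. An unadjusted p under 0.05 was found there for 39 of the 89 (43.82%) and for 8.16% of all tested genes. Of the 28 lower genes 4 were called there, Zc3h12a as lower and Marco, Siglece and Gbp2b as higher, and these were the 4 called over all genes (0.0293%). Between EMdKO and MKO the 1 gene called was Zc3h12a (0.00734%). Cell cycle genes lay lower, with Ccnb2 at 8.09 to 10.4 CPM and Kifc1 at 9.78 to 12.7 in EMdKO, below every EKO mouse, and at 6.75 to 19.8 and 9.16 to 18.2 in controls. EKO and EMdKO share Krt14Cre and MKO and EMdKO share LysMCre, and the difference between the 2 pairs was not tested as an interaction.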

How the data were processed

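Per the labels' protocols, whole skin was snap-frozen, total RNA extracted and amplicon libraries prepared (Ion AmpliSeq Transcriptome Mouse). The authors deposited raw read counts per target, and the submitters' processing notes name HTSeq 0.6.0 and DESeq2 1.18.1. The aligner and genome build are not given in the sources used here. The 5 summary lines of each file, 3.655 to 5.252% of reads in the 8 libraries, were left out. Of 23930 targets, 22562 received a symbol, 22452 from RefSeq GRCm38.p6 and 110 from GENCODE vM21.

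Groups and mouse numbers came from the titles. The labels name separate mice and give no litter. No pair of libraries looked like copies (smallest chi-square per degree of freedom 14.43). Counts of all 16 libraries were fitted by quasi-likelihood in edgeR 4.0.16 under R 4.3.3 (TMM scaling, default expression filter, 1 mean per group; 12 residual degrees of freedom, biological coefficient of variation 0.31). SE is the absolute log2 fold change divided by the square root of F. Scores use log2 CPM with a prior count of 2. The pipeline was tested on simulated data.

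The comparison, its gene lists and the rules were chosen with earlier results of these data known. Of 34 lists, 33 had 3 or more tested members; for red blood cells 2 genes were tested, 1 positive and 0 called. Genes named by rule were Zc3h12a, Krt14 and Lyz2, the 12 largest called differences in each direction among genes whose log2 CPM averaged 1 or more and with no overlap between groups, and the 3 members of each list with the smallest p. Any other gene in the text was chosen after its values were seen. Lists are described by counts and medians, without a test of the list. The permutation test enumerated all 70 assignments of 8 mice. Alternatives were DESeq2 1.42.0, limma-voom in limma 3.58.1, other scaling and filters, EKO and MKO alone, the mouse number as a block, hair shaft and muscle covariates, and each library left out. Leaving out EKO mouse 1 and MKO mouse 1 together was added after seeing the data, as were scores without named members. Figures used python 3.11.15, pandas 2.3.3, numpy 2.4.6 and matplotlib 3.10.9.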

Additional observations from a re-analysis of the deposited data

Results flagged for a closer look

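In 12 cases 1 of the 4 mice of a group lay far from the other 3, judged by its gap to the nearest mouse divided by the group's range on the log2 scale. The test was run on 52 groups of named gene values and 66 groups of list scores, and chance gives such a gap in about 1 in 20 groups. Stfa3 in EKO mouse 1 was at 12.4 CPM where the other EKO mice had 698 to 992 (gap over range 0.92). Slurp2 in EKO mouse 1 was at 12.7 CPM where the others had 195 to 328 (0.839), and in MKO mouse 1 at 1.57 CPM where the others had 8.66 to 11.6 (0.847).

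EKO mouse 1 also lay far below the other EKO mice in 4 list scores, those of suprabasal keratins and desmosome genes (9.23, others 10.23 to 10.3, gap over range 0.935), IL-1 and IL-36 genes (3.63, others 4.87 to 5.11, 0.838), stefin and serpin B inhibitors (4.17, others 6.93 to 7.30, 0.882) and sebaceous gland genes (5.77, others 6.92 to 7.09, 0.871).

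MKO mouse 1 had the highest MKO score for mast cell and basophil markers (4.11, others 3.36 to 3.48, gap over range 0.84), skeletal muscle (11.36, others 9.63 to 9.88, 0.855), endothelial genes (4.82, others 4.47 to 4.49, 0.943) and nerve and Schwann cell genes (4.68, others 4.08 to 4.11, 0.95). MKO mouse 4 had the highest hair shaft score of its group (2.66, others -1.01 to -0.77, 0.935).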

How the results depend on the processing

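None of the 117 called genes changed sign in any setting run. The 89 higher and 28 lower calls stayed within 1.5 times with RLE or library-total scaling, with no filter or a stricter one, and with EKO and MKO alone (70 and 32, of which 33 and 17 were among the 117). DESeq2 called 403 higher and 220 lower and limma-voom 826 and 765, against 35 and 18 with the hair shaft covariate and 148 and 48 with the muscle covariate; the cause was not tested. Leaving out 1 library gave 2 to 359 higher and 4 to 151 lower, and leaving out EKO mouse 1 and MKO mouse 1 together 244 and 97. With the mouse number as a replicate block 31 were higher and 15 lower. Same-numbered EKO and MKO mice correlated at 0.16, 0.38, 0.01 and -0.36, and differently numbered ones at -0.44 to 0.38. The labels give no litter, so whether the numbers pair the mice is unknown.

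With the hair shaft covariate the list medians moved to 0.16 (basal keratinocyte), -0.07 (IL-6 and IL-17), -0.26 (macrophage), 0.09 (hair shaft), -0.48 (outer root sheath), 0.16 (melanocyte) and -0.08 (mRNA decay), and with the muscle covariate the hair shaft median was 6.33. Without EKO mouse 1 and MKO mouse 1 they were 0.36 (chemokines), 0.08 (macrophage), 0.03 (mast cell), -0.48 (outer root sheath) and 1.31 (melanocyte). Leaving out 1 EKO or MKO mouse gave -0.39 to -0.20 for the IL-6 and IL-17 list, whose members Il6 and Il17a were not tested. It gave -0.03 to 0.24 for chemokines, 2.79 to 8.26 for hair shaft, 1.45 to 3.44 for melanocyte and -0.06 to 0.02 for mRNA decay genes. In the exact permutation test the Krt14 difference (log2 CPM) was 0.772 to 1.64 and that of Lyz2 0.405 to 1.03, each highest without EKO mouse 1, where p was 0.0286. Depth limits genes with a few counts in 1 group, such as Marco, Serpinb3a, Jchain and Mrgprg, to a direction and a rough size.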
